A study of Mus musculus with 3 samples.

Results

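Cited1 cells are stromal cells of mouse subcutaneous fat that carried transcripts of Cited1 together with transcripts of genes of fat uptake and storage. A barcode was counted as a Cited1 cell when it held at least 2 unique molecular identifiers (UMIs, single captured transcripts) of Cited1 and at least 2 of Fabp4 and Lpl together, provided that over 500 genes were detected in it and mitochondrial UMIs stayed under 5%. There were 349 such cells among 34577 kept cells. The working name of the group was Cited1 Car3 Ptn committed preadipocytes, with Cited1, Ptn, Slc36a2, Enpp6, Cacng4, Car3, Sdc1, Postn and Fgf10 as its markers. These markers had been chosen on these libraries, so their levels cannot test the name, and they differed widely between the mice. The cells are therefore called Cited1 cells here.

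Single-cell RNA sequencing was performed on the stromal vascular fraction (SVF) of the inguinal subcutaneous depot, which holds what is left of digested fat once floating adipocytes are removed. Cells without CD31 and CD45, the surface proteins of endothelial cells and leukocytes, were isolated by FACS from 3 wild-type C57BL/6J male mice aged 8 weeks. Each mouse gave 1 library, all mice shared 1 condition, and the labels name no batch. Mice 1, 2 and 3 gave 12984, 6414 and 15179 kept cells with median depths of 7392.5, 12192.5 and 6667 UMIs, and any pair of libraries shared between 52 and 81 barcode sequences. The comparison class was preadipocytes (PreA), kept cells with at least 4 UMIs of Icam1 and Fabp4 together, at most 1 of Dpp4 and none of Clec11a or Cited1. They numbered 1889, 1179 and 1683. For reference, 1077 Clec11a cells (Clec11a at least 2, Dpp4 at most 1, no Cited1) and 12596 Dpp4 cells (Dpp4 at least 3, no Icam1, Fabp4, Clec11a or Cited1) were also measured.

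White fat grows new adipocytes from stromal progenitors. Dpp4+ progenitors give rise to Icam1+ preadipocytes, which switch on the nuclear receptor PPARγ and its targets, such as the fatty acid carrier Fabp4 and the lipase Lpl, before they fill with lipid. CITED1 is a coactivator without a DNA-binding domain of its own that binds CBP/p300 and SMAD4. Its transcript is used as a marker of beige adipocytes and is also made in luminal epithelium of the mammary gland, which in female mice lies within the inguinal fat and in males is largely absent.

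Cited1 (ENSMUSG00000051159) lies on the minus strand of chrX:102247381-102252181 and Ptn (ENSMUSG00000029838), which codes for the secreted heparin-binding growth factor pleiotrophin, on the minus strand of chr6:36714929-36810220 (GRCm38). Their promoters are shown because Cited1 defines the cells and Ptn, a namesake of the group, was highest in the epithelial cells described below. Each line gives the 250 bases before an annotated start, 5′ to 3′ on the gene's strand (RefSeq, GRCm38.p6), at chrX:102252182-102252431 for Cited1 and chr6:36810180-36810429 for Ptn. Capitals mark matches, on either strand, to the TATA box letters TATAAA, to the CCAAT box or to the C/EBP core letters TTNNGCAA.
Cited1: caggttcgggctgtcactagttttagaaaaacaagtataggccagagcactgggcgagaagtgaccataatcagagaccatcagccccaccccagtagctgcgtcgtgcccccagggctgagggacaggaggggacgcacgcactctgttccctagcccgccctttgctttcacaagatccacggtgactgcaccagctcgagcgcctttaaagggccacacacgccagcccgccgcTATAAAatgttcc
Ptn: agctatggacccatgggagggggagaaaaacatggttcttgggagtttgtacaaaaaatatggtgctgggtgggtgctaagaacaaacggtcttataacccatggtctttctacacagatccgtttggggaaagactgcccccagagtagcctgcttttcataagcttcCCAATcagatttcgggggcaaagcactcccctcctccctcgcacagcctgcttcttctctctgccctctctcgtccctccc
TATAAA was in 12.4% and CCAAT in 33.9% of the 32851 windows of this length in the table, and TTNNGCAA in 9.56%. The 6 markers listed there (Cited1, Ptn, Enpp6, Sdc1, Postn and Fgf10) held TATAAA in 2 cases, CCAAT in 3 and TTNNGCAA in 2, counting every listed start of a gene. These matches describe letters only.

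The Cited1 cells were spread very unevenly over the mice. Mouse 1 held 212 of them (1.63% of its kept cells, exact 95% interval 1.42 to 1.87), mouse 2 held 64 (0.998%, 0.769 to 1.27) and mouse 3 held 73 (0.481%, 0.377 to 0.604). The mean share was 1.04% ± 0.577 (SD, n = 3), and the highest share was 3.40 times the lowest. The intervals cover counting error only and do not overlap. Of all 349 cells, 60.7% came from mouse 1. Mouse 2 was the most deeply sequenced, and when cells were thinned to 3000 UMIs before gating, the shares were 0.714%, 0.131% and 0.218%, with mouse 3 above mouse 2. The ratio of the highest share to the lowest lay between 1.93 and 5.86 under the alternatives.

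The gate also held cells of different kinds, in proportions that differed between the mice. Cells with at least 2 Fabp4 UMIs and without epithelial markers made up 191 of 212 Cited1 cells in mouse 1 (90.1%), 18 of 64 in mouse 2 (28.1%) and 38 of 73 in mouse 3 (52.1%). A further 21, 46 and 26 cells had fewer than 2 Fabp4 UMIs and passed the gate mainly through Lpl. In mouse 3, the other 9 cells carried 32 to 118 UMIs of epithelial genes each, while no other Cited1 cell of that mouse carried more than 1. All 9 had transcripts of the epithelial adhesion gene Epcam and of the keratins Krt8 and Krt18, while the basal keratins Krt14 and Krt5 and the luminal progenitor factor Elf5 were at 0. They are called epithelial cells here for these markers, but they also held transcripts of stromal genes: Pdgfra in 6 of the 9 cells (184 CPM), Dcn at 5347 CPM, Col3a1 at 4814 CPM and Pi16 at 1182 CPM. Doublets were not removed, and whether these cells are doublets was not tested. Mice 1 and 2 had no such cell in the gate, which allows shares of up to 1.42% and 4.69% (3 counts of the total). Marker levels, most gene lists and the largest rises and falls are therefore also given for the Fabp4-positive cells alone, a division chosen after the data were seen.

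**Figure D1:**
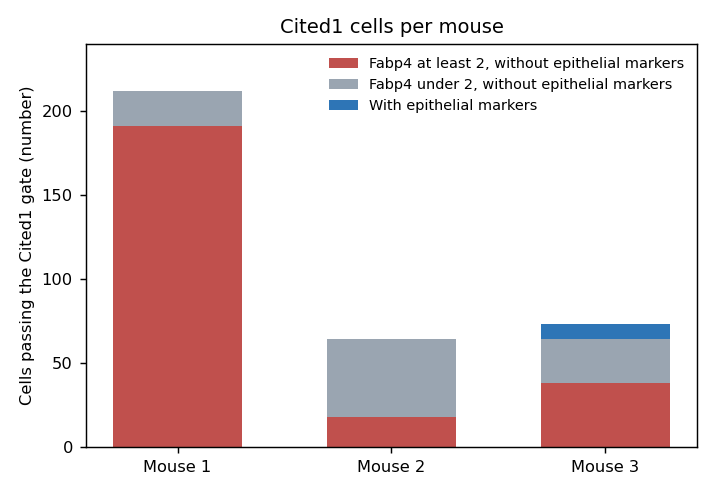
Number of Cited1 cells in each mouse (vertical axis), divided by Fabp4 UMIs and epithelial markers (colours). Mouse 1 held 212 cells, 191 of them with Fabp4, whereas 46 of the 64 cells of mouse 2 had fewer than 2 Fabp4 UMIs and 9 of the 73 cells of mouse 3 were epithelial.

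The gate genes describe the cells and were not tested. Counts were summed over the cells of a class in each mouse and expressed as counts per 1000000 UMIs (CPM). Cited1 was at 537, 241 and 682 CPM in mice 1, 2 and 3. Fabp4 was at 2341, 747 and 2376 CPM in Cited1 cells and at 1342, 1377 and 1238 CPM in PreA, so that it was higher than in PreA in mice 1 and 3 and lower in mouse 2. Lpl behaved likewise, at 3604, 1879 and 3184 CPM against 3122, 2720 and 2944 CPM. Icam1, which the PreA gate selects for, was lower in Cited1 cells of each mouse (156, 153 and 227 CPM against 466, 454 and 686). Dpp4 was at 80.2, 183 and 215 CPM in Cited1 cells, between its levels in PreA (15.1, 7.76 and 19.7) and in Dpp4 cells (1024, 524 and 1037). The gate for Cited1 cells set no upper limit on Dpp4 or Clec11a, whereas the PreA gate did.

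The remaining 8 markers came with the cell group and had been chosen on these libraries, so their levels are a description without a test. All of them were detected in the Cited1 cells of every mouse, and 7 were higher there than in PreA in 3 of 3 mice, with the exception of Car3. In mouse 2 some levels rested on very few cells. Of its 64 Cited1 cells, 3 held Ptn, 3 held Cacng4 and 2 held Enpp6. The Enpp6 level there, 3.18 CPM, is that of 3 counts.

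Among the secreted and matrix genes, Ptn was at 205, 7.43 and 1034 CPM in Cited1 cells of mice 1, 2 and 3 and at 5.37, 1.31 and 6.01 CPM in PreA. The high value of mouse 3 rested on the epithelial cells, which held 640 of its 687 Ptn UMIs. Without them the level in that mouse was 83.7 CPM. Postn, which codes for the matrix protein periostin, was at 6851, 1467 and 2424 CPM in Cited1 cells, 10.9, 4.28 and 5.83 times the PreA levels of 631, 343 and 416 CPM. Dpp4 cells also held Postn, at 767, 741 and 828 CPM, below the lowest Cited1 value. Fgf10, a growth factor made by preadipocytes, was at 771, 74.3 and 382 CPM against 139, 41.3 and 68.2 CPM. It was higher within every mouse, although mouse 2's Cited1 cells were below mouse 1's PreA.

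Among the membrane and enzyme genes, Slc36a2, the proton-coupled amino acid transporter PAT2 of fat cells, was at 82.1, 14.9 and 30.1 CPM in Cited1 cells and at 3.76, 0.526 and 0.584 CPM in PreA. Its groups did not overlap. Cacng4, an auxiliary subunit of membrane channels, was at 49.5, 8.49 and 36.1 CPM against 7.44, 1.38 and 1.59, also without overlap. Enpp6, a choline-specific phosphodiesterase, was at 67.7, 3.18 and 16.6 CPM against 3.29, 0.789 and 0.668, and the value of mouse 2 lay below that of PreA in mouse 1. Sdc1, the heparan sulphate proteoglycan syndecan-1, was at 230, 27.6 and 82.8 CPM against 37.8, 15.8 and 12.8, with the same overlap. Car3, a carbonic anhydrase abundant in adipocytes, was at 231, 13.8 and 238 CPM against 62.8, 30.0 and 28, so that it was above PreA in mice 1 and 3 and below it in mouse 2.

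In the Fabp4-positive Cited1 cells all 8 markers were above PreA in every mouse, and only Car3 overlapped between the groups (252, 41.1 and 421 CPM). In mouse 2 this rested on 18 cells, with Enpp6 at 9.49 CPM. In all Cited1 cells 17.3% of the tested genes did not overlap. That share was not computed for the Fabp4-positive cells. Their Ptn was at 223, 22.1 and 120 CPM, their Slc36a2 at 87.0, 34.8 and 53.3 CPM, their Postn at 7317, 3122 and 3959 CPM and their Fgf10 at 821, 193 and 658 CPM. The Cited1 cells with fewer than 2 Fabp4 UMIs had no Car3 UMI in any mouse and held Ptn at 11.5, 0 and 10.8 CPM. They carried Dpp4 at 299, 249 and 393 CPM, against 60.3, 50.6 and 112 CPM in the Fabp4-positive cells. These groups were set by Fabp4, a gate gene, after the data were seen, so the contrast is a description.

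**Figure D2:**
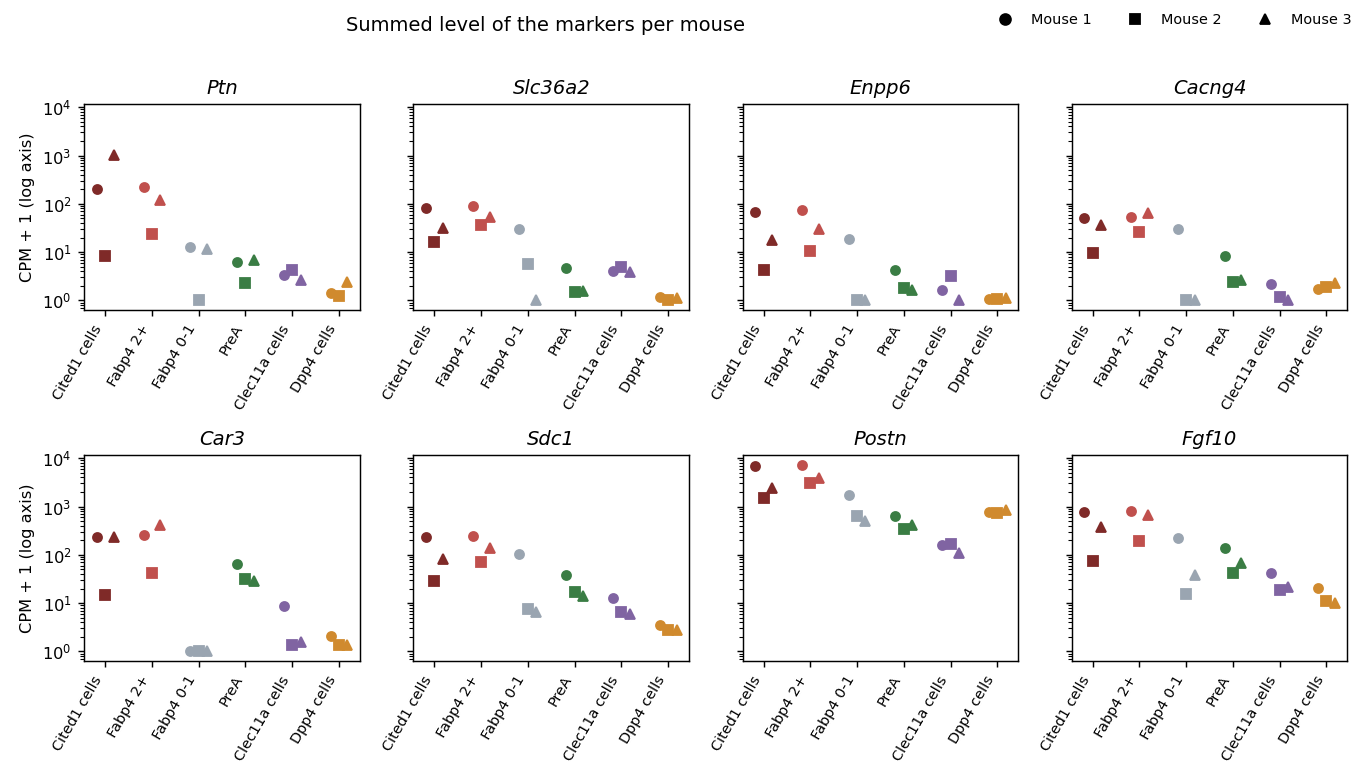
Summed level of 8 markers in each class, as CPM + 1 on a log axis, with 1 symbol per mouse. Fabp4 2+ and Fabp4 0-1 are Cited1 cells with at least 2 or fewer than 2 Fabp4 UMIs and without epithelial markers. The Fabp4-positive cells lie above PreA in every mouse, and the Fabp4 0-1 cells lie below the Fabp4-positive ones in every mouse.

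Markers were also counted in single cells. Of Ptn, Slc36a2, Enpp6, Cacng4, Car3, Sdc1 and Fgf10, at least 3 were detected in 75.0% of the Cited1 cells of mouse 1, in 10.9% of those of mouse 2 and in 27.4% of those of mouse 3. In PreA the shares were 7.20%, 1.44% and 1.13%, and 0 of 4736, 1860 and 6000 Dpp4 cells had 3 or more, which allows up to 0.0633%, 0.161% and 0.05%. The depth of the cells did not follow this order. The median Cited1 cell had 9263, 14151 and 8148 UMIs in mice 1, 2 and 3 and the median Dpp4 cell 7431.5, 12192.5 and 6841.5. After each cell was thinned to 3000 UMIs, the shares were 40.2%, 3.59% and 14.9% in Cited1 cells (210, 64 and 73 cells were deep enough) and 1.94%, 0.157% and 0.234% in PreA. None of the 7 markers was detected in 15, 37 and 20 Cited1 cells. With Fabp4 at least 2, the unthinned shares were 81.2%, 38.9% and 52.6%, and with fewer than 2 they were 19.0%, 0% and 0%, where 0 of 46 and 26 cells allow up to 6.52% and 11.5%. After thinning, the shares were 43.3%, 12.8% and 28.7% with Fabp4 at least 2 and 11%, 0% and 0% with fewer.

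**Figure D3:**
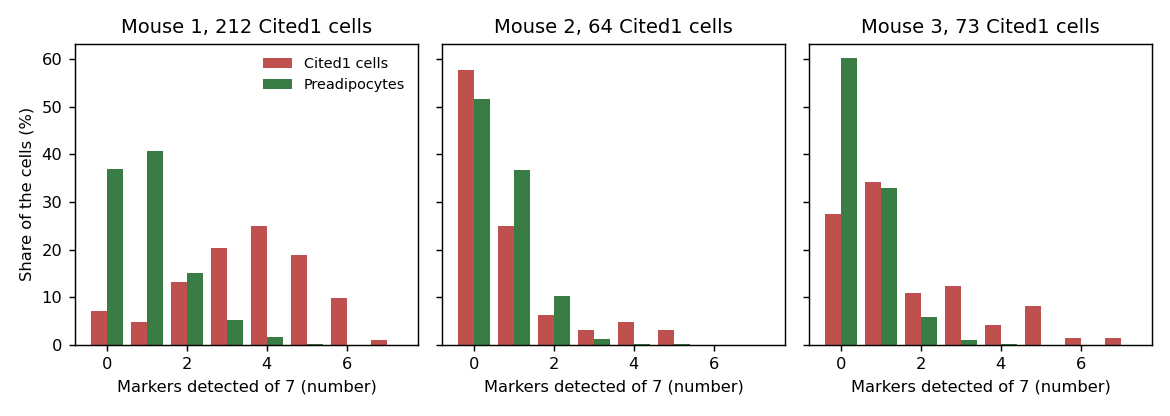
Share of cells (vertical axis) by how many of 7 markers had at least 1 UMI (horizontal axis), for Cited1 cells and PreA of each mouse. In mouse 1 most Cited1 cells had 3 or more markers, whereas 37 of 64 cells in mouse 2 had none.

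Most markers were higher in cells with more Cited1 UMIs, and the mix of cells changed along the same axis. The median Fabp4 count went from 11, 0 and 0 UMIs in cells with 2 Cited1 UMIs to 31, 34.5 and 45 UMIs in cells with 10 or more, in mice 1, 2 and 3. In mouse 1, cells with 2 Cited1 UMIs held Car3 at 97.7 CPM, Postn at 5152 CPM and Slc36a2 at 51.1 CPM, and cells with 10 or more held 404, 8274 and 113 CPM. Between the same levels, Enpp6 was at 64.6 and 56.5 CPM, the exception among the 8 markers in mouse 1. In mouse 3, Postn was at 817 CPM in the 30 cells with 2 Cited1 UMIs and at 5270 CPM in the 13 cells with 10 or more. Mouse 2 had only 8 cells with 5 or more, of which 6 had 5 to 9 and held Postn at 4939 CPM. Between 2 Cited1 UMIs and the 2 cells with 10 or more, Slc36a2, Car3, Sdc1, Postn and Fgf10 were also higher in that mouse (9.19 and 48.8 CPM for Slc36a2), Ptn and Enpp6 went from 5.51 and 3.67 CPM to 0, and Cacng4 was at 0 in both. Just outside the threshold, cells with 1 Cited1 UMI numbered 339, 188 and 260 in the 3 mice and held Postn at 1658, 560 and 724 CPM, against 5152, 931 and 817 CPM in the cells with 2, just inside it. At the second threshold, cells with at least 2 Cited1 UMIs but under 2 of Fabp4 and Lpl numbered 5, 4 and 35.

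Genes that took no part in the gate or the marker list were used to find the 15 nearest cells of each Cited1 cell within its own library. In mouse 1, 52.9% of these neighbours were Cited1 cells, which made up 1.63% of the kept cells, and 22.7% were PreA. In mouse 2 the Cited1 share was 4.38% against 0.998%, and in mouse 3 it was 17.5% against 0.481%. For the Fabp4-positive cells the neighbours were Cited1 cells in 57.2%, 4.44% and 28.1% and PreA in 24.2%, 70.0% and 43.3%, while Dpp4 cells gave 0.209%, 0.741% and 0.526%. PreA made up 14.5%, 18.4% and 11.1% of kept cells and Dpp4 cells 36.5%, 29% and 39.5%. For the Fabp4-poor cells Dpp4 cells gave 20%, 22.6% and 23.3% of the neighbours, below their share of kept cells in every mouse, and PreA gave 9.52%, 5.22% and 14.4%. Clec11a cells gave 1.27%, 15.7% and 5.64% of these neighbours in mice 1, 2 and 3, where they were 1.99%, 7.64% and 2.17% of kept cells. With 15 principal components in place of 30, Cited1 cells were 6.85% of the neighbours of all Cited1 cells in mouse 3, and for its Fabp4-positive cells the share was 7.89%, with 61.9% PreA. With 30 neighbours, the Cited1 share of the Fabp4-positive cells in mouse 2 was 2.96%. Cells of 1 library are not independent samples, and these shares were not tested.

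The median Cited1 cell was deeper than the median PreA cell in each mouse. The median UMI count was higher by 1313, 1284 and 892 in mice 1, 2 and 3, and the median number of detected genes by 419, 117 and 343. The exact two-sided sign-flip permutation test over 3 mice gave p = 0.25 for both, the smallest value this design can give. The median mitochondrial percentage was 2.03, 2.37 and 1.97 in Cited1 cells and 1.62, 2.69 and 2.01 in PreA, without a common direction (exact permutation p = 1). With classes gated alike, the differences in mitochondrial percentage were 0.378, 0.0754 and 0.0706, all positive (exact permutation p = 0.25).

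Summed counts of Cited1 cells and PreA were then compared within the mice, to ask which genes apart from the gate genes set the Cited1 cells apart. Of 11590 genes tested, 377 passed an adjusted p of 0.05 in edgeR's quasi-likelihood test with the mouse as a block (3.25%), 161 of them higher in Cited1 cells (1.39%) and 216 lower (1.86%). These include 7 of the given markers, which are not counted as evidence. In 17.3% of the tested genes the CPM of the classes did not overlap. At an unadjusted p under 0.05 there were 1700 genes. The 3 mice contributed unequally to these calls: 110 genes passed without mouse 1 (0.96%, 0.428% higher and 0.533% lower), 818 without mouse 2 (6.95% of those tested, 2.85% higher and 4.09% lower) and 47 without mouse 3 (0.396%, 0.169% higher and 0.228% lower). Scaling by library size in place of TMM moved the median of all genes from 0.0023 to 0.133 on the log2 scale and turned the split of calls from 42.7% to 60.7% higher in Cited1 cells. When both classes were gated alike (Fabp4 and Lpl together at least 2, Dpp4 at most 1, no Clec11a), 555 genes passed (4.62%), 170 higher (1.41%) and 385 lower (3.2%). In the Fabp4-positive cells alone, 898 genes passed (7.85%), 339 higher (2.96%) and 559 lower (4.89%), and 309 of the 377 passed in the same direction.

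Of the 10 largest rises, Peg3, H19, Itga2b and Plk2 also passed with classes gated alike (2.84, 2.68, 2.41 and 1.99), and the other 6 did not pass as higher. Peg3, an imprinted zinc finger gene, was at 317, 115 and 311 CPM in Cited1 cells of mice 1, 2 and 3 and at 51.2, 22.9 and 50.5 CPM in PreA. Its lowest Cited1 value was above its highest PreA value, and it rose by 2.40 ± 0.13 (log2 fold change ± SE, edgeR adjusted p = 0.000239). In the Fabp4-positive cells it was at 331, 218 and 517 CPM, against 161, 62.3 and 64.6 CPM in the Fabp4-poor cells. Dpp4 cells had 17.5, 14.6 and 22.7 CPM of Peg3, below both other classes in each mouse. The imprinted non-coding RNA H19 was at 64.8, 83.9 and 36.1 CPM against 26.2, 8.41 and 8.93 CPM, a rise of 2.04 ± 0.35 (edgeR adjusted p = 0.0186), and its highest value was that of mouse 2. H19 shares exon sequence with the microRNA gene Mir675 on the same strand, and counts of these cannot be told apart. Itga2b, integrin αIIb, was at 279, 43.5 and 116 CPM against 40.0, 25.7 and 21.2 CPM and rose by 1.99 ± 0.32 (edgeR adjusted p = 0.0127). Plk2, a stress-responsive kinase, was at 50.4, 9.55 and 117 CPM against 9.39, 6.11 and 9.18 CPM and rose by 2.40 ± 0.40 (edgeR adjusted p = 0.0157). In mouse 3 its level was 591 CPM in the epithelial cells and 29.3 CPM in the Fabp4-positive cells, and in mouse 2 the Fabp4-positive cells held less Plk2 (3.16 CPM) than PreA. With the epithelial cells left out, Plk2 had 1.69 (edgeR adjusted p = 0.0221).

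The remaining 6 of the largest rises included genes high in Dpp4 cells. Pi16, a defining gene of Dpp4+ progenitors, was at 323, 1794 and 808 CPM in Cited1 cells and at 111, 56.3 and 120 CPM in PreA. It rose by 2.93 ± 0.56 (edgeR adjusted p = 0.0273), and its level was 3413, 4714 and 3436 CPM in Dpp4 cells. Pi16 was higher in the Fabp4-poor cells (1045, 2598 and 1217 CPM) than in the Fabp4-positive ones (257, 202 and 503 CPM). Sfrp4, a secreted Wnt antagonist, and Smpd3, a neutral sphingomyelinase, rose by 2.70 ± 0.42 and 2.46 ± 0.40. When both classes were gated alike, the sign of Pi16, Sfrp4 and Smpd3 turned, to -1.48, -1.56 and -2.19. Myoc (myocilin) and Cilp (cartilage intermediate layer protein), both of the extracellular space, rose by 3.41 ± 0.72 and 3.18 ± 0.25. Their levels were 902, 601 and 140 CPM for Myoc and 391, 214 and 188 CPM for Cilp in the Fabp4-poor cells, against 1.57, 139 and 2.66 CPM and 5.24, 50.6 and 2.66 CPM in the Fabp4-positive ones. Efhd1, a calcium-binding protein of mitochondria, rose by 2.16 ± 0.29, to 89.3, 79.6 and 57.2 CPM, against 213, 227 and 242 CPM in Dpp4 cells. With classes gated alike, Myoc (0.34), Cilp (1.06) and Efhd1 (0.66) did not pass. Without mouse 3, 2 of the 10 rises passed (Peg3 and Cilp, at 2.38 and 3.31), and without mouse 1, 7 passed, without Myoc, Plk2 and Itga2b (3.99, 2.47 and 1.52). With the Fabp4-positive cells alone, 7 of the 10 rises passed, without Myoc (0.96), Cilp (0.69) and Smpd3 (0.55), and 6 passed there without mouse 1. With the 5% of cells with the most UMIs left out, 6 of the 10 rises passed, without Myoc, Pi16, Sfrp4 and Smpd3 (3.48, 2.77, 2.41 and 2.50), and without the mouse as a replicate block 0 passed.

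The 10 largest falls were in the same direction under every alternative run. Hsd11b1, which regenerates active glucocorticoid, was at 23.5, 125 and 42.1 CPM in Cited1 cells and at 176, 369 and 208 CPM in PreA, without overlap, and fell by 2.33 on the log2 scale (SE 0.25, edgeR adjusted p = 0.00256). Cyp26b1, which degrades retinoic acid, was at 31.7, 53.1 and 21.1 CPM against 214, 142 and 105 CPM and fell by 2.29 (SE 0.26, edgeR adjusted p = 0.00339). Adh1, an alcohol dehydrogenase that oxidizes retinol, was at 19.7, 42.5 and 19.6 CPM against 89.9, 95.1 and 78.0 CPM and fell by 1.88. Enpp2 (autotaxin, which makes lysophosphatidic acid) was at 76.8, 110 and 129 CPM against 348, 358 and 452 CPM, and Hpgd (which inactivates prostaglandins) at 34.1, 31.8 and 37.6 CPM against 101, 97.7 and 140 CPM. They fell by 2.03 and 1.81 (edgeR adjusted p = 0.000865 and 0.00127). The secreted neurotrophin Ntf3 fell by 2.24, the matricellular genes Smoc2 and Spon1 by 1.93 and 1.91, the basement membrane collagen Col4a4 by 1.88 and the chemokine Ccl8 by 1.83. For every one of the 10, the highest Cited1 value lay below the lowest PreA value. Dpp4 cells were also low in several of them, such as Enpp2 (17.2, 11.8 and 10.6 CPM) and Cyp26b1 (26.5, 14.6 and 7.50 CPM). All 10 passed in the Fabp4-positive cells and with classes gated alike, whereas 4 passed without mouse 3 (Hsd11b1, Enpp2, Ccl8 and Hpgd, at -2.28, -2.05, -1.48 and -1.70) and 8 without mouse 1 (Ntf3 at -1.44 and Spon1 at -1.73 did not). Without the mouse as a replicate block, 2 of the 10 falls passed, Enpp2 and Hpgd (-2.02 and -1.86).

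**Figure D4:**
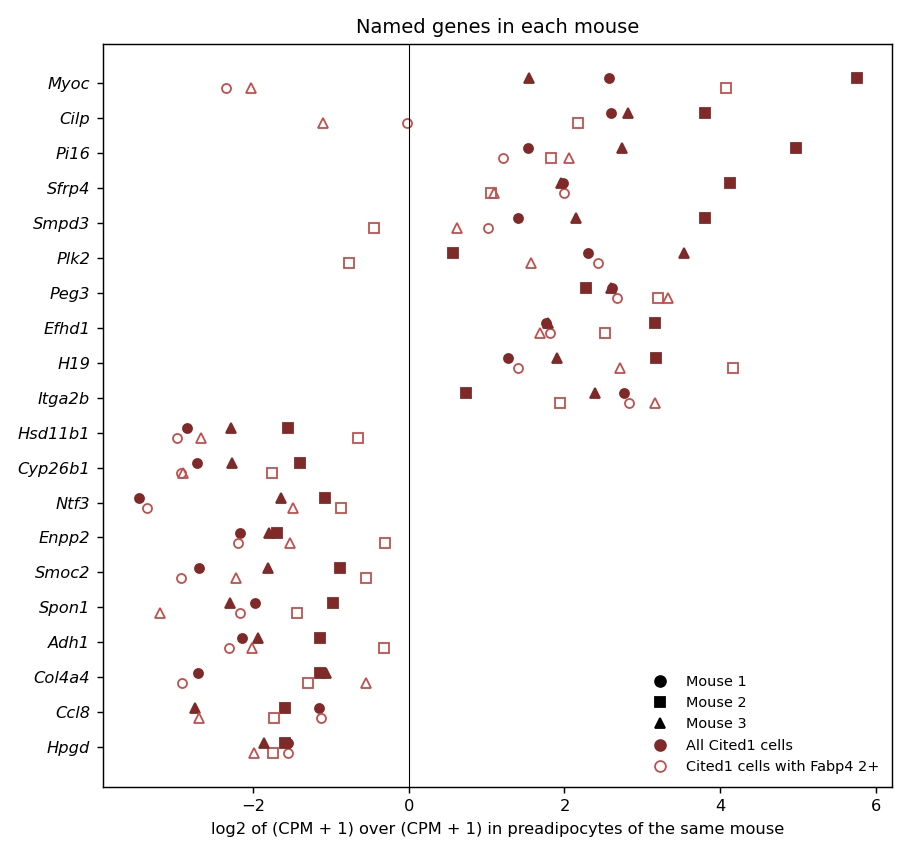
Log2 ratio of CPM + 1 in Cited1 cells to CPM + 1 in PreA of the same mouse (horizontal axis) for the 10 largest rises and 10 largest falls, with 1 symbol per mouse. Filled symbols are all Cited1 cells and open symbols the Fabp4-positive ones. All falls stay below 0 in both, whereas Myoc, Cilp, Smpd3 and Plk2 have open symbols below 0.

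The basement membrane and collagen lists held more falls than rises. Of 18 basement membrane genes tested, 6 fell and 1 rose, against 1.86% and 1.39% of all genes, with a median log2 fold change of -0.48 beside 0.0023 over all genes. The type IV collagen genes Col4a1 and Col4a2, which form its network, fell by 1.52 and 1.42. Col4a1 was at 1844, 991 and 1542 CPM in Cited1 cells and at 4088, 2977 and 4191 CPM in PreA, and at 326, 175 and 203 CPM in Dpp4 cells. Col4a3 and Col4a4 fell by 2.29 and 1.88, and of the others Sparc, the most abundant member tested, had -0.54 (edgeR adjusted p = 0.0906). Of 22 genes of other collagens (fibrillar, the beaded-filament collagen VI and others) and their processing, 9 fell and 1 rose, with a median of -0.46. Col5a3 fell by 1.21, Col6a2 by 1.15, Col6a3 by 1.04 and the crosslinking enzyme Lox by 1.25. Col3a1, the most abundant, whose exons overlap Gm47302 on the same strand, had -0.56 (edgeR adjusted p = 0.0641), at 13589, 14488 and 13203 CPM against 17336, 18957 and 19464. Among the Fabp4-positive cells, where 4.89% of all genes were lower and 2.96% higher, 12 of 17 basement membrane genes were lower and 1 higher, and 14 of 22 other collagen genes were lower and 1 higher. Without mouse 3, 0 collagen genes of the second list and 3 basement membrane genes fell (0.228% of all genes). Without mouse 1, 4 and 6 fell (0.533%). Counts with classes gated alike are not given for the basement membrane list or the list of other collagens. Of 29 matricellular and elastic fibre genes 0 fell and 1 rose, the fibronectin gene Fn1, by 1.81 (1735, 2797 and 1985 CPM against 675, 398 and 626). Fn1 did not pass without mouse 3 (1.98) and had -0.22 with classes gated alike. This list gave 9 falls and 0 rises of 30 with classes gated alike (3.2% of all genes were lower), 10 falls and 1 rise without mouse 2 (4.09%), and 9 falls and 3 rises in the Fabp4-positive cells.

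Of 28 chemokine and interferon genes tested, 10 fell, 0 rose and 18 did not pass, with a median of -0.68 (1.86% of all genes fell). The eotaxin gene Ccl11 was at 263, 474 and 369 CPM against 967, 1181 and 928 CPM and fell by 1.64 (SE 0.15, edgeR adjusted p = 0.00152). Ccl7, which attracts monocytes, fell by 1.58, Cxcl1, which attracts neutrophils, by 0.98 and the interferon-induced Ifit3 by 1.19. Of the same 28 genes 12 were lower in the Fabp4-positive cells (4.89% of all genes), and 2 fell without mouse 3 (0.228%). These counts are against PreA, whose gate selects for Icam1. Counts with classes gated alike are not given for this list. Of 28 genes of tissue dissociation and the immediate early response, 3 rose and 2 fell, against 1.39% and 1.86% of all genes. The rises included Nr4a3 by 1.64 and Nr4a1 by 1.23, and the falls were Egr3 by 0.81 and Klf6 by 0.75. Jun, the most abundant of the 28, had -0.39 (edgeR adjusted p = 0.161). Without mouse 1 or mouse 3, 1 rise and 0 falls passed (0.428% and 0.169% of all genes rose). With classes gated alike, 0 rose and 3 fell (1.41% and 3.2% of all genes), and Nr4a3 turned to -0.82. The Fabp4-positive cells gave 2 higher and 5 lower of these 28 (2.96% and 4.89% of all genes).

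Counts of members called are read here against the shares of all genes that were called, 1.39% higher and 1.86% lower in all Cited1 cells, 2.96% and 4.89% in the Fabp4-positive cells, 1.41% and 3.2% with classes gated alike, and 2.85% and 4.09% without mouse 2. Of 35 genes of lipid uptake, synthesis and droplets, 1 rose and 4 fell, with a median of -0.08. Scd1, the desaturase that makes oleate, was at 227, 111 and 146 CPM in Cited1 cells and at 52.8, 35.1 and 30.9 CPM in PreA. It rose by 1.87 (SE 0.14, edgeR adjusted p = 0.000865), passed without each mouse in turn, and was at 241, 155 and 208 CPM in the Fabp4-positive cells. G0s2, an inhibitor of lipolysis, fell by 1.56, the droplet coat gene Plin4 by 1.27 and Apoe by 1.22. None of the 4 falls passed without mouse 3. With classes gated alike G0s2 (-0.91) and Plin4 (-0.31) did not pass. Of 22 sterol synthesis genes, 8 fell and 0 rose, with a median of -0.62. Msmo1 fell by 1.38, Idi1 by 1.27, and Hmgcs1 and Sqle by 1.25 each. Without mouse 3, none of the 23 sterol genes then tested passed (0.396% of all genes), without mouse 1, 6 fell (0.533%), and with classes gated alike, 4 of 23 fell (3.2% of all genes). The lipid list gave 1 higher and 4 lower in the Fabp4-positive cells, and the sterol list 0 higher and 7 lower of 22. Of 8 adipocyte hormone and insulin response genes 1 rose: Rbp4, the carrier of retinol, by 1.64 (SE 0.20, edgeR adjusted p = 0.00417), at 187, 76.4 and 134 CPM against 46.8, 36.6 and 29.2. It missed the threshold without mouse 1 and without mouse 3, with values of 1.50 and 1.46. The hormone and insulin response list gave 1 higher and 1 lower of 8 in the Fabp4-positive cells.

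Of 24 transcription factors of fat cell formation tested, 1 rose, Arid5b, by 0.96 (edgeR adjusted p = 0.0477), and 0 fell, a share near that of all genes (3.25% called in either direction). Arid5b did not pass without mouse 1 (0.89), without mouse 3 (1.22) or with the epithelial cells left out (0.93). The list gave 3 higher and 4 lower of 23 in the Fabp4-positive cells (7.85% of all genes in either direction), 2 rises and 4 falls without mouse 2 (6.95%), and 1 rise and 2 falls with classes gated alike (4.62%). Pparg was at 60.0, 19.1 and 42.1 CPM in Cited1 cells and at 52.2, 49.8 and 47.3 CPM in PreA, higher in mouse 1 and lower in the others (log2 fold change -0.45, edgeR adjusted p = 0.489). In the Fabp4-positive cells it was at 64.5, 44.3 and 66.6 CPM, and in Dpp4 cells at 3.02, 2.65 and 3.01 CPM. Cebpa was at 23.5, 29.7 and 12.0 CPM against 33.7, 42.5 and 31.5 CPM (edgeR adjusted p = 0.0805). The 15 mature adipocyte markers, Car3 included, summed to 271, 51.0 and 283 CPM in Cited1 cells and to 123, 96.3 and 95.2 CPM in PreA. Car3 was the most abundant in Cited1 cells, and 7, 8 and 8 genes were at 0 there. Of 4 tested apart from Car3, 1 fell (Plin4) and 0 rose, beside 3.25% of all genes called. In the Fabp4-positive cells 1 of 4 was lower (7.85% called), and with classes gated alike 0 passed. Adipoq (adiponectin) had 1 UMI in all Cited1 cells, in mouse 1. None of 6 CITED partner genes tested passed in either direction: Hif1a, the most abundant, whose exons overlap Gm49321, had -0.08, and the acetyltransferase genes Crebbp and Ep300 and Smad4 lay in overlapping ranges. Of 10 thermogenic genes 1 fell, Cox8b, a subunit of cytochrome oxidase, by 2.28 (9.60, 5.31 and 7.52 CPM against 27.2, 57.9 and 30.6), and 0 rose. It did not pass without mouse 3 (-2.31). The thermogenic list gave 1 higher and 2 lower in the Fabp4-positive cells, and the 6 CITED partner genes gave 0 of either. Ucp1 had 0 UMIs in the Cited1 cells of each mouse, which allows up to 1.44, 3.18 and 4.51 CPM. Of 53 nuclear-encoded respiratory chain genes 0 passed, with a median of 0.04, and 0 passed in the Fabp4-positive cells.

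**Figure D5:**
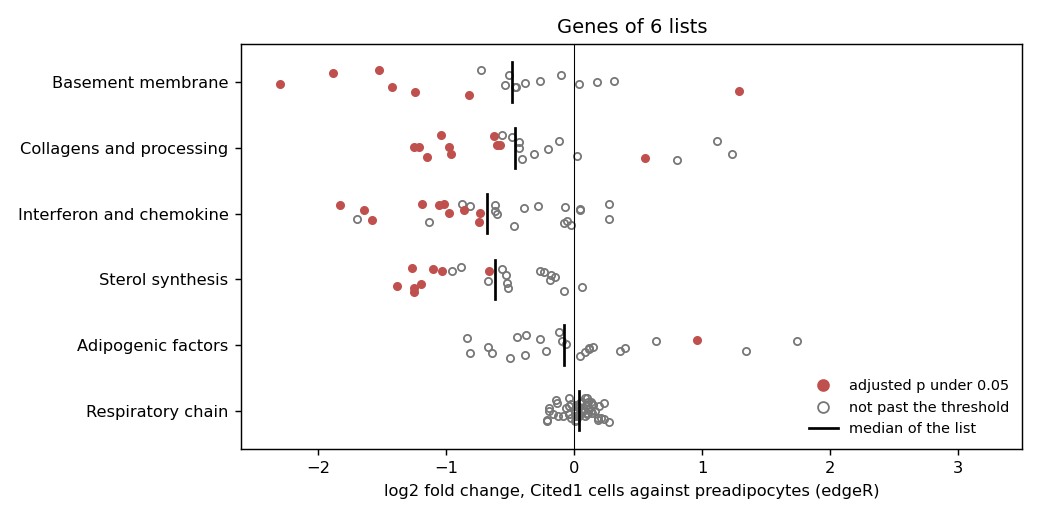
Log2 fold change of Cited1 cells against PreA (edgeR) for the tested genes of 6 lists, with 1 point per gene, filled where the adjusted p was under 0.05, and a black line at each list's median. The first 4 lists lie mostly below 0, the adipogenic factors scatter around it, and the 53 respiratory chain genes stay within a narrow band.

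Among signalling genes, Wnt ligands, receptors and inhibitors gave 3 rises and 0 falls of 26 tested (Sfrp4, Wnt10b and Wnt2, by 2.70, 2.52 and 1.62), against 1.39% of all genes higher and 1.86% lower, with a median of 0.49. For the lists that follow, the shares of all genes called in either direction were 3.25% in all Cited1 cells, 7.85% in the Fabp4-positive cells, 4.62% with classes gated alike and 6.95% without mouse 2. The most abundant, Sfrp2, had 2.33 (edgeR adjusted p = 0.0555) and was at 68.7, 1174 and 441 CPM against 40.8, 66.5 and 85.6. Without mouse 3, 0 of the Wnt genes passed. With classes gated alike the list gave 1 rise and 3 falls and Wnt10b turned to -0.31. Of 22 Wnt genes tested in the Fabp4-positive cells, 5 were higher and 2 lower. Of 17 FGF pathway genes apart from Fgf10, the ligand genes Fgf1 and Fgf13 rose by 2.36 and 2.44 from low levels (16.8, 2.12 and 12.0 CPM for Fgf1 in Cited1 cells), and the feedback inhibitor Spry1 fell by 1.66 (SE 0.15, edgeR adjusted p = 0.00144). Spry1 was at 18.7, 37.2 and 28.6 CPM against 54.5, 116 and 74.5 CPM, and it passed without each mouse in turn, whereas Fgf1 and Fgf13, with 1 mouse left out, passed only without mouse 2 (2.47 and 2.76). In mouse 3, Fgf1 was at 58.1 CPM in the epithelial cells, at 5.33 CPM in the Fabp4-positive and at 0 in the Fabp4-poor cells, and with the epithelial cells left out it did not pass (1.93, edgeR adjusted p = 0.0845). The FGF list gave 2 higher and 5 lower of 17 in the Fabp4-positive cells, 2 rises and 4 falls of 17 with classes gated alike, and 3 rises and 2 falls of 18 without mouse 2. Of 13 genes of pleiotrophin's family, receptors and syndecans, 1 rose, the receptor phosphatase Ptprs, by 0.89, and it did not pass without mouse 1 (0.68) or mouse 3 (0.98). Lrp1, the most abundant, had -0.56. This list gave 2 rises and 4 falls of 13 with classes gated alike and without mouse 2, and 2 higher and 5 lower in the Fabp4-positive cells. Of 35 TGF-beta and BMP genes, Ltbp4 rose by 0.93 and the receptor Acvr2a fell by 0.86. The same list gave 1 rise and 5 falls of 35 with classes gated alike, and 4 rises and 3 falls of 36 without mouse 2. Of 11 insulin-like growth factor genes Igfbp3 rose by 1.80, to 39.4, 244 and 99.3 CPM against 16.9, 30.8 and 37.8, and Igfbp7 and Igf2r fell by 0.78 and 0.75. Igfbp3 had the opposite sign in the Fabp4-positive cells (-0.22) and with classes gated alike (-1.0). Ltbp4, Acvr2a, Igfbp3, Igfbp7 and Igf2r did not pass without mouse 1 (0.83, -0.88, 2.13, -0.86 and -0.75) or without mouse 3 (1.08, -0.84, 2.06, -0.59 and -0.85). The Fabp4-positive cells gave 2 higher and 4 lower of 33 TGF-beta and BMP genes, and 1 higher and 4 lower of 10 insulin-like growth factor genes. Of 21 proliferation genes 1 rose, near the share of all genes, the imprinted cell cycle inhibitor Cdkn1c, by 1.55, to 29.3, 64.8 and 33.1 CPM against 10.3, 16.3 and 12.1. It passed without each mouse in turn, but not with classes gated alike (0.27). Of 16 proliferation genes tested in the Fabp4-positive cells, 2 were higher and 1 lower. Without mouse 2, 3 of 17 proliferation genes rose and 1 fell, beside 6.95% of all genes called.

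A list of 14 genes held markers and adipogenic genes that the study uses to divide or describe its preadipocytes, with Angptl4 and Insig1 added. Of the 14, 4 fell and 0 rose (G0s2, Insig1, Pdgfrb and Txnip, by 1.56, 1.04, 0.90 and 0.69), with a median of -0.52, against 1.86% and 1.39% of all genes. Some of them, Cd44, Noct, Txnip, G0s2, Ptx3 and Mt2, the study found in its own libraries. Of the study's stemness genes this list held Pdgfra alone (-0.36, edgeR adjusted p = 0.340). Among the other stemness genes Pi16, Wnt2 and Fn1 rose, as given with their own lists, and Ly6a, Cd34, Itgb1, Cd55, Anxa3, Cebpb and Ebf2 did not pass. Cd44 was at 83.6, 60.5 and 55.7 CPM in Cited1 cells and at 67.0, 82.6 and 98.9 CPM in PreA, Noct, the circadian gene nocturnin, at 227, 59.4 and 150.5 CPM against 109, 101 and 145, and the groups of both overlapped. In the Fabp4-positive cells Noct was at 235, 130 and 213 CPM, above PreA of each mouse, and in the Fabp4-poor cells at 144, 24.0 and 70.0 CPM. Cd44 was at 87.0, 66.4 and 63.9 CPM in the Fabp4-positive cells, above PreA in mouse 1 only. G0s2 was there at 52.4, 455 and 66.6 CPM against 255, 307 and 194 in PreA, above PreA in mouse 2. Without mouse 3, 0 of the 14 passed, and with classes gated alike Txnip had 0.00068. With the Fabp4-positive cells alone, 1 was higher and 4 were lower.

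Members of some lists of cell type markers passed in this comparison, and those of other lists did not. Of all genes, 1.39% were higher and 1.86% lower in all Cited1 cells, and 2.96% and 4.89% in the Fabp4-positive cells. With classes gated alike the shares were 1.41% and 3.2%. They were 0.428% and 0.533% without mouse 1, 2.85% and 4.09% without mouse 2, and 0.169% and 0.228% without mouse 3. The 9 Dpp4 progenitor markers other than Dpp4 gave 3 rises and 0 falls of 8 tested, with a median of 1.56. Their list, Dpp4 included, summed to 954, 3063 and 1956 CPM in Cited1 cells, with Pi16 the most abundant, to 484, 278 and 506 CPM in PreA and to 8213, 8490 and 8805 CPM in Dpp4 cells, and 0 of its 10 genes were at 0 in Cited1 cells. With classes gated alike the list gave 0 rises and 6 falls, and without mouse 3 it gave 0 of either. It gave 4 rises of 9 without mouse 1 (median 2.03) and 5 of 8 without mouse 2 (median 0.97). Of 8 tested in the Fabp4-positive cells, 3 were higher, with a median of 0.53. The 8 adipogenesis-regulatory markers summed to 199.8, 1077 and 438 CPM in Cited1 cells, with Gdf10 the most abundant and none at 0, to 264, 402 and 305 CPM in PreA and to 2972, 2913 and 3343 CPM in Clec11a cells. Clec11a, a gate gene that the PreA gate excludes, is among them. Of the 7 others tested, 1 rose (Igfbp3) and 0 fell, with a median of 0.39. Without mouse 1 and with classes gated alike, 0 passed, with medians of 1.17 and -0.81. In the Fabp4-positive cells 0 of 6 passed and all 6 were below 0, with a median of -0.51. The median was -0.43 without mouse 2, and 0 passed without mouse 3. The mural cell markers fell in 5 of 9 tested genes (1.86% of all genes fell), among them Abcc9 by 1.50, and in 0 without mouse 1 or without mouse 3. With the Fabp4-positive cells alone, 5 of 9 were lower. The mural list summed to 37.0, 32.9 and 58.7 CPM in Cited1 cells and to 123, 75.8 and 130 CPM in PreA, with Abcc9 the most abundant, and 0, 6 and 4 of its 10 genes were at 0 in Cited1 cells. The endothelial list summed to 7.20, 10.6 and 4.51 CPM against 56.4, 95.6 and 7.34, with Cldn5 the most abundant in PreA, and 2, 7 and 7 of its 10 genes were at 0 in Cited1 cells. Of 5 endothelial genes tested 1 fell, Cldn5, from 14.8, 26.8 and 1.59 CPM in PreA to 0.480, 0 and 0 CPM (edgeR adjusted p = 0.00256). In mouse 3 the PreA value of Cldn5 lay under 4.51 CPM, the level that 0 UMIs in its Cited1 cells allow. Of 1889, 1179 and 1683 PreA cells, 30, 35 and 4 held 5 or more UMIs of the endothelial list, and 18, 22 and 19 of the mural list. In the Fabp4-positive cells 3 of 4 endothelial genes tested were lower. The melanocyte list summed to 29.3, 40.3 and 33.1 CPM against 55.0, 74.5 and 63.7, with Mitf the most abundant in Cited1 cells and 3, 4 and 5 of its 6 genes at 0 there, and of 2 tested Mlana fell by 2.90 (edgeR adjusted p = 0.00709). Of the PreA cells of mice 1, 2 and 3, 4, 39 and 4 held 5 or more UMIs of the melanocyte list. In the Fabp4-positive cells 1 of 2 melanocyte genes tested was lower. The muscle list summed to 8.16, 5.31 and 3.01 CPM against 1.95, 232 and 1.92, with 6, 6 and 7 of its 8 genes at 0 in Cited1 cells. In mouse 2 the most abundant muscle gene of PreA was Acta1 (87.9 CPM), and 1 of its 1179 PreA cells held 5 or more UMIs of the muscle list. The 1 muscle gene tested, Tnnt3, fell by 4.02 (edgeR adjusted p = 0.0266), at 69.1 CPM in PreA of mouse 2 and higher in Cited1 cells than in PreA in mouse 3 (3.01 against 1.42 CPM). With DESeq2 Tnnt3 did not pass (-2.84). Without mouse 2, and in the Fabp4-positive cells, no muscle gene could be tested. Epithelial markers summed to 725 CPM in Cited1 cells of mouse 3, with Krt18 the most abundant, against 1.17 CPM in its PreA. The Schwann cell list summed to 95.1, 44.6 and 30.1 CPM in Cited1 cells against 38.3, 34.3 and 29.6, with S100b the most abundant and 3, 5 and 2 of its 7 genes at 0 in Cited1 cells. None of its 4 tested genes passed (S100b had 0.84, edgeR adjusted p = 0.179), but S100b passed with classes gated alike (1.40), without mouse 2 (1.11) and in the Fabp4-positive cells (1.12). Of 7 preadipocyte markers tested apart from gate genes, 0 passed and 6 were below 0, with a median of -0.58, and the median was 0.14 with classes gated alike and 0.0085 in the Fabp4-positive cells. Leukocyte markers were at 3.84, 7.43 and 4.51 CPM in Cited1 cells and at 5.63, 5.39 and 8.26 CPM in PreA. The 1 leukocyte gene tested, Cd68, did not pass. The share of each of these in the gene calls was not tested beyond the counts above: with the epithelial cells left out, 401 genes passed, and 356 of them were shared with the main comparison.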

How the data were processed

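The authors deposited, for each of 3 libraries, counts of UMIs per gene and barcode for 32285 genes, as whole numbers without normalization. Cell Ranger is named with version 4.0.0 in the file headers and 2.1.1, with build mm10, in the submitters' processing notes. Doublets were not removed. The cells, markers, gates and 34 gene lists were chosen with earlier results of these data known.

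Counts were summed per mouse and class and tested with edgeR 4.0.16 in R 4.3.3 (filterByExpr, TMM, quasi-likelihood test, mouse as block, Benjamini-Hochberg over all genes). Gate genes were left out. Both sums of a mouse come from 1 animal, and after subtraction of class means their deviations correlated with r = 0.429, 0.439 and 0.197 over 11590 genes (genes are no independent replicates). Named genes are the 10 largest rises and falls that passed, had 1 sign in every mouse and at least 50 CPM in a class, plus each list's most abundant gene and up to 4 that passed, and genes the study names. Neighbours came from 30 principal components of 2000 variable genes (scikit-learn 1.9.0). Alternatives changed scaling, tool (DESeq2 1.42.0), filters, gates, depth and mice. Positions are from GENCODE M21 (GRCm38, in which 32158 gene identifiers were found). The test was checked on simulated data in which both classes of a mouse shared 1 mouse effect. It found 73 of 100 changes of 1 and 100 of 100 changes of 2 on the log2 scale. Of 11361 unchanged genes, 11 were called. The simulation held no mix of cells that differed between the mice, so it does not cover that feature of the data.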

Additional observations from a re-analysis of the deposited data

Results flagged for a closer look

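Cells with at least 2 Cited1 UMIs that lacked Fabp4 and Lpl at the gate were outside the comparisons and above the 3 counts that a count of 0 allows in each library. There were 5 of them in mouse 1, 4 in mouse 2 and 35 in mouse 3. Of these, 2, 3 and 24 carried at least 5 UMIs of epithelial genes. Over all 5, 4 and 35 cells Ptn was at 5600, 5191 and 5450 CPM, and Slc36a2, Enpp6 and Car3 were at 0. All kept cells with epithelial markers numbered 2, 4 and 53.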

How the results depend on the processing

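The number of genes past the threshold was 377 and ranged from 47 to 818 when 1 mouse was left out. It was 30 without the mouse as a replicate block (18 higher, 12 lower), 979 without a filter on low counts and 232 without the 5% of cells with the most UMIs. In the Fabp4-positive cells without epithelial markers, an alternative chosen after the data were seen, it was 898, and 419 to 1207 when 1 mouse was left out. It stayed within 1.5 times under the remaining alternatives (277 to 555), DESeq2 (417) among them. The mean share of Cited1 cells was 3.46% with at least 1 Cited1 UMI and 0.354% when cells were thinned to 3000 UMIs before gating. The difference in mitochondrial percentage changed from 0.0140 to -0.182 without mouse 1 and 0.183 without mouse 2, and was 0.175 with classes gated alike. With classes gated alike, Pi16 turned to -1.48, Sfrp4 to -1.56, Smpd3 to -2.19, Igfbp3 to -1.0, Wnt10b to -0.31, Fn1 to -0.22, Nr4a3 to -0.82 and Txnip to 0.00068. In the Fabp4-positive cells Igfbp3 turned to -0.22, and to -0.43 without mouse 1 and -0.53 without mouse 2, where Myoc and Cilp turned to -2.97 and -0.45. The block changed the calls of 64 named genes, of which 0 changed sign. The causes were not tested. With 64 and 73 cells in mice 2 and 3, low genes rest on few UMIs, and the uneven mix of cells limits what the sums of 3 mice can show.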
